A study of Mus musculus with 22 samples.

Results

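The mitochondrial carriers of the Slc25 family were taken as all genes whose symbol on the array platform begins with Slc25a. Each gene was read through its brightest probe set and kept where the mean over all arrays was at least 5.2 log2. The platform names 46 such genes, and 41 passed this floor, out of 14002 genes that passed it in all. Just inside was the glutamate carrier Slc25a18, with a mean of 5.34 log2, and just outside was Slc25a41, a carrier of ATP-Mg and phosphate that lacks the calcium-binding domain of its relatives, with 5.10 log2. The other 4 genes under the floor were the ornithine carrier Slc25a2 at 4.60, Slc25a53 at 4.45, the ADP/ATP translocase of testis Slc25a31 at 3.45 and Slc25a54 at 3.25 log2.

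The arrays compared kidneys of wild-type mice and of mice deficient in Clock, labelled clock(-/-) and called knockout here. Clock is the partner of Arntl in the transcription factor at the core of the circadian clock. The colony was founded from heterozygous clock(+/-) pairs, and mice of both genotypes spent 2 weeks under 12 h of light and 12 h of dark and then 30 h in constant darkness. Kidneys were collected at 6 circadian times 4 h apart, named by zeitgeber time (ZT), with ZT0 at the former lights on and ZT12 at the former lights off. Every array held RNA pooled from 2 or 3 mice, so single mice cannot be told apart. There were 11 arrays per genotype, from 2 pools at each time except for 1 wild-type pool at ZT8 and 1 knockout pool at ZT16. The source is given as whole kidney and the tissue as left kidney, and age and sex are not stated in the labels. Nothing says that the pools came from separate litters or days, so no p-value here can be taken to cover more than the spread among these pools. In the tests fitted as a wave of 24 h, that spread also includes departures of the times from the wave.

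Carriers of this family are encoded in the nucleus, and nearly all sit in the inner mitochondrial membrane. There they exchange or import nucleotides, phosphate, carboxylic acids, amino acids, acylcarnitines, cofactors and iron between the cytosol and the matrix. The proximal tubule of the kidney is rich in mitochondria, which power reabsorption and take part in glucose synthesis, ammonium production and fatty acid oxidation. Clock and Arntl bind the E-box CACGTG in the promoters of many rhythmic genes.

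Whole kidney mixes many cell types, so fewer cells of a type and less RNA per cell cannot be told apart. All 12 proximal tubule markers passed the floor, with a mean between 11.78 and 11.86 log2 in the wild-type arrays and between 11.75 and 11.91 in the knockout arrays, where both knockout ZT20 pools had the lowest value. These pools also stood apart in the mean of 7 sex-dimorphic kidney transcripts, which was 8.84 and 8.36 log2 there. The single transcripts were not compared by array. The mean of the 7 was 9.39 to 10.68 in the other knockout arrays and 9.82 to 10.65 in wild type. All 7 also differed between the genotypes over the cycle (each adjusted p under 0.05). In knockout 5 were lower, from -0.658 log2 in Acsm3 to -1.929 in Cyp4a12a, and 2 higher, Slc7a12 by 2.384 and Cyp4a14 by 1.317. Of 7 brown fat markers 6 passed the floor. The mean of all 7 was highest in knockout ZT8 pool 1, at 7.43 log2 with Ucp1 at 8.34. In wild type the mean was 5.47 to 6.48, and in the other knockout arrays 5.46 to 6.47. Among other markers, 3 of 5 of the distal convoluted tubule and 3 of 6 of endothelium were higher in knockout (5.22% of all genes). So were 2 of 5 in principal and in intercalated cells each, and 2 of 6 in the thick ascending limb (1 lower). The part of these differences in the results below was not tested, and calls that depended on leaving out an array are described beside each result. The Clock probe set read 8.47 to 9.16 log2 in wild type and 8.73 to 9.11 in knockout, and since the deleted part of the gene is not named in the labels, it does not check the genotype.

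Promoters are shown for 5 of the 7 carriers that were rhythmic in wild type, because their upstream sequence holds an E-box or a cyclic AMP response element (CRE, TGACGTCA). RefSeq (GRCm38.p6) gave a window from 250 bases before to 50 bases after the transcript start for 33 of the 41 members, 42 windows in all. The 250 bases before the start are printed 5′ to 3′ on the strand of the gene, all on the minus strand, with the motif in capitals. They lie at chr6:6217174-6217423 for the aspartate/glutamate carrier Slc25a13, chr8:22398278-22398527 for the ornithine carrier Slc25a15, chr4:149774268-149774517 and chr9:97111042-97111291 for the pyrimidine nucleotide carriers Slc25a33 and Slc25a36, and chr2:32424067-32424316 for the ATP-Mg/phosphate carrier Slc25a25.
Slc25a13: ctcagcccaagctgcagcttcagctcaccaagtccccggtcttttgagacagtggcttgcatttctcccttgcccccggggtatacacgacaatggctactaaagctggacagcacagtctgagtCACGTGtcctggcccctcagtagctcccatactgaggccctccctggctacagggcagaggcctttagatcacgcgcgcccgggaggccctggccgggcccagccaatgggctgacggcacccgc
Slc25a15: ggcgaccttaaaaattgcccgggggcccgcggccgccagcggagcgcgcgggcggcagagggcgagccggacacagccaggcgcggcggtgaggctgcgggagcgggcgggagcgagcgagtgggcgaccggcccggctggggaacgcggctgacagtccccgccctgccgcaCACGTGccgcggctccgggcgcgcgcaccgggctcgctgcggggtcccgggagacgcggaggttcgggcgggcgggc
Slc25a33: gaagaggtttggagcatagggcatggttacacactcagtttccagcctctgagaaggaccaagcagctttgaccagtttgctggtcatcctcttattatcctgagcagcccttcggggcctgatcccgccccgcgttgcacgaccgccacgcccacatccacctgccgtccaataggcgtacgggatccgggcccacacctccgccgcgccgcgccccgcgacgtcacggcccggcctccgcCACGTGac
Slc25a36: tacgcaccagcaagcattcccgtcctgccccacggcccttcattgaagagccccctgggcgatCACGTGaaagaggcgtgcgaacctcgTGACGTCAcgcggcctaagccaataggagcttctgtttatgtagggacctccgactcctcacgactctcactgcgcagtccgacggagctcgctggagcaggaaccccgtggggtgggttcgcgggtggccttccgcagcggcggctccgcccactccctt
Slc25a25: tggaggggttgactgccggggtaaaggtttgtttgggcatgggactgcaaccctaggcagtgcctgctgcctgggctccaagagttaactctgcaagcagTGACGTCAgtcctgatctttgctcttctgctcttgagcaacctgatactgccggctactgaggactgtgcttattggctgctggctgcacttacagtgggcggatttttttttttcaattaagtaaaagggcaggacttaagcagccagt

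The E-box starts at -125 from the transcript start in Slc25a13, at -77 in Slc25a15, at -8 in Slc25a33 and at -187 in Slc25a36, and the CRE at -161 in Slc25a36 and at -150 in Slc25a25. Slc25a15 has 2 windows, of which 1 holds the E-box, and Slc25a25 has 3, of which 1 holds the CRE. Searched on both strands, CACGTG was present in 6 of the 33 members with a window, the others being the citrate carrier Slc25a1 and Slc25a14, a relative of the uncoupling proteins. By window, CACGTG was present in 7 of the 42 of the members and in 7.15% of all 32851 mouse windows of the same length. TGACGTCA was found in 2 of the 42 windows, those of the 2 members shown, and in 1.79% of all windows. The E-prime box CACGTT was found in 3 of the 42 windows, those of the mitoferrin Slc25a28, Slc25a30 and Slc25a43, and in 4.68% of all windows. The D-box TTATGTAA or TTACGTAA (1.06% of all windows) and the ROR core TAGGTCA (2.61%) had no match in the members' windows. The letters of CACGTT are not part of CACGTG, and no motif overlapped another in the windows shown.

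The first comparison asked which carriers differed between the genotypes in their mean over the cycle. Of the 41 carriers, 7 differed at an adjusted p under 0.05, while 9.11% of all genes tested did. Higher in knockout were 3 carriers (5.22% of all genes): the oxodicarboxylate carrier Slc25a21, the ADP/ATP translocase Slc25a4 and the ornithine carrier Slc25a15. Lower in knockout were 4 (3.89% of all genes): the coenzyme A carrier Slc25a42, the glutathione importer Slc25a39, the ATP-Mg/phosphate carrier Slc25a25 and the dicarboxylate carrier Slc25a10. The sizes were small, from a fold of 0.797 for Slc25a42 to 1.2 for Slc25a21, knockout over wild type. The median difference of the members was -0.02 log2 and that of all genes 0.004, and the median size without sign was 0.061 against 0.062. At an unadjusted p under 0.05, 17 carriers differed (25.1% of all genes). The difference was above 0 in 17 carriers, called or not (51.6% of all genes).

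**Figure D1:**
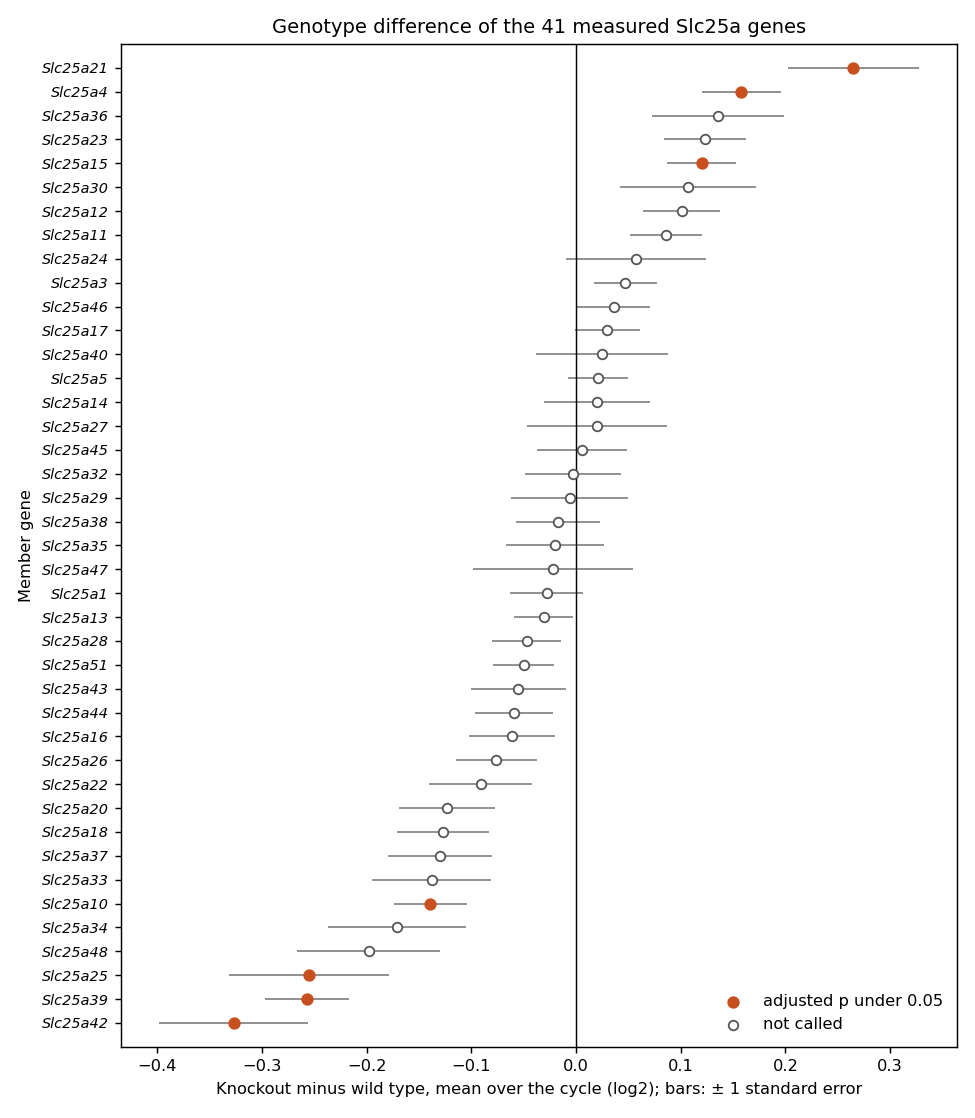
Knockout minus wild-type difference of the mean over the cycle, in log2, for each of the 41 carriers, with bars of 1 standard error on each side. Filled points are the 7 carriers with an adjusted p under 0.05, from Slc25a42 at -0.33 to Slc25a21 at 0.27, and open points are the others, which lie between -0.198 and 0.136.

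Among the carriers of energy metabolism, Slc25a4, which swaps ADP for ATP across the inner membrane, read 11.82, 12.01 and 12.06 log2 as the lowest, median and highest of the wild-type arrays. In knockout the lowest, median and highest were 12.02, 12.12 and 12.35 log2. Of the 11 knockout arrays, 10 lay above every wild-type array, and the exception was ZT12 pool 2. The difference was 0.16 ± 0.04 log2 (SE, n = 11 and 11 arrays; adjusted p = 0.0116), with knockout above wild type at each of the 6 times. It was 0.19 within the pool 1 arrays and 0.11 within the pool 2 arrays, and 0.14 with an adjusted p of 0.08 without both knockout ZT20 pools. With a free level at each time in place of the wave it was 0.15 (adjusted p = 0.0691). The other translocase, Slc25a5, had a difference of 0.02 log2 (adjusted p = 0.67 with each probe set tested on its own). Its brightest probe set has an identifier among those of chromosome 5 genes, although the gene lies on chromosome X, so it may read a near-identical copy. The phosphate carrier Slc25a3 did not pass the test.

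Slc25a25, a calcium-regulated carrier of ATP-Mg and phosphate that sets the adenine nucleotide pool of the matrix, read 9.10, 9.49 and 10.14 log2 as the lowest, median and highest of the wild-type arrays. Its knockout arrays read 8.59, 9.30 and 9.77 log2. The ranges overlapped, and 4 knockout arrays lay below every wild-type array. The mean over the cycle fell by 0.26 ± 0.08 log2 in knockout (SE; adjusted p = 0.0376). The call depended on single arrays. Leaving out any 1 of 11 of the 22 arrays ended it, with an adjusted p of up to 0.0838 and a difference between -0.289 and -0.207 over all 22 fits. Those arrays were wild-type ZT0 pool 1, both ZT4 pools, ZT12 pool 2 and both ZT16 pools, and knockout ZT0 pool 1, both ZT8 pools, ZT12 pool 1 and ZT20 pool 1. Without both knockout ZT20 pools the difference was -0.21 (adjusted p = 0.15), and without knockout ZT8 pool 1 it was -0.23 (adjusted p = 0.0713).

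The relative Slc25a23, another calcium-regulated ATP-Mg/phosphate carrier, came nearest to a call without reaching it. Its wild-type arrays read 8.73, 8.87 and 9.06 log2 as the lowest, median and highest, and its knockout arrays 8.91, 9.0 and 9.10. The ranges overlapped, with 2 knockout arrays above every wild-type array. The difference was 0.12 ± 0.04 log2 (SE; adjusted p = 0.054), with knockout above wild type at all 6 times. It was called without wild-type ZT4 pool 2, ZT12 pool 1 or ZT16 pool 1, or without knockout ZT0 pool 2 or ZT4 pool 1, with an adjusted p down to 0.0136.

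Among the acid carriers, Slc25a21, which carries oxoadipate and oxoglutarate in the breakdown of lysine and tryptophan, read 7.26, 7.78 and 7.96 log2 as the lowest, median and highest of the wild-type arrays. Its knockout arrays read 7.83, 7.98 and 8.39 log2. In 7 of the 11 knockout arrays the value exceeded every wild-type array, and wild-type ZT16 pool 1 was the lowest of all 22. The difference was 0.27 ± 0.06 log2 (SE; adjusted p = 0.00965), a fold of 1.2, with knockout above wild type at all 6 times. It stood at 0.27 within pool 1, 0.24 within pool 2 and 0.31 without both knockout ZT20 pools.

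Slc25a10, which exchanges malate or succinate for phosphate, sulphate or thiosulphate, read 10.54, 10.78 and 10.95 log2 as the lowest, median and highest in wild type. Knockout arrays read 10.42, 10.62 and 10.85 log2. The ranges overlapped, and the 4 knockout arrays below every wild-type array were ZT0 pool 1, ZT16 pool 1 and both ZT20 pools. The mean over the cycle fell by 0.14 ± 0.04 log2 in knockout (SE; adjusted p = 0.0146), a fold of 0.908. By time, the difference was 0.02 for ZT0, -0.04 for ZT4, -0.16 for ZT8, -0.11 for ZT12, -0.34 for ZT16 and -0.27 for ZT20, none of them called on its own. Within pool 1 the difference was -0.20 and within pool 2 -0.05, and without both knockout ZT20 pools it was -0.13 with an adjusted p of 0.0776. The citrate carrier Slc25a1, the oxoglutarate/malate carrier Slc25a11 and the carnitine/acylcarnitine carrier Slc25a20 did not pass, Slc25a20 with -0.12 ± 0.05 log2 (SE; adjusted p = 0.101).

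Slc25a39, which imports glutathione into the matrix, had the smallest adjusted p of the family. Its wild-type arrays read 11.54, 11.73 and 11.85 log2 as the lowest, median and highest, and its knockout arrays 11.36, 11.42 and 11.59 log2. Of the knockout arrays, 8 lay below every wild-type array, and ZT0 pool 2, ZT8 pool 2 and ZT12 pool 2 lay within the wild-type range. The mean over the cycle fell by 0.26 ± 0.04 log2 (SE; adjusted p = 0.000243), a fold of 0.837, and knockout was below wild type at all 6 times. The difference was -0.30 within pool 1, -0.20 within pool 2 and -0.24 without both knockout ZT20 pools. Its relative Slc25a40 and the iron importers Slc25a28 and Slc25a37, the mitoferrins, did not pass.

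Slc25a42, which brings coenzyme A into the matrix, had the largest difference of the 41 carriers. Its wild-type arrays read 7.78, 8.33 and 8.52 log2 as the lowest, median and highest, and its knockout arrays 7.55, 7.96 and 8.43 log2. The ranges overlapped, and the 3 knockout arrays below every wild-type array were both ZT0 pools and ZT20 pool 1. The mean over the cycle fell by 0.33 ± 0.07 log2 (SE; adjusted p = 0.00528), with differences from -0.14 at ZT4 to -0.59 at ZT16. The difference was -0.46 within pool 1 and -0.11 within pool 2. Without the ZT20 pools of both genotypes it was -0.31, and the call ended (adjusted p = 0.0698). The other cofactor carriers, among them Slc25a51 for NAD, Slc25a26 for S-adenosylmethionine and Slc25a32 for folate or FAD, did not pass.

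Slc25a15, which exchanges ornithine and citrulline across the inner membrane, read 9.94, 10.09 and 10.22 log2 as the lowest, median and highest in wild type. Its knockout arrays read 10.08, 10.17 and 10.30 log2, with 3 of them above every wild-type array. The difference was 0.12 ± 0.03 log2 (SE; adjusted p = 0.023), a fold of 1.09. By time it ran from -0.007 at ZT20 to 0.26 at ZT16, and it was 0.16 within pool 1 and 0.07 within pool 2. Leaving out wild-type ZT4 pool 1 or knockout ZT16 pool 1 ended the call, with 0.114 (adjusted p = 0.0509) and 0.101 (adjusted p = 0.0583). None of the other 7 amino acid carriers passed, with the aspartate/glutamate carriers Slc25a12 at 0.10 and Slc25a13 at -0.03 log2.

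Of the 7 carriers placed in none of the role groups used here, none passed. The nearest was Slc25a48, placed by sequence near the basic amino acid carriers, whose wild-type arrays read 7.32, 7.38 and 7.68 log2 and whose knockout arrays read 6.90, 7.17 and 7.74 as the lowest, median and highest. Of the knockout arrays, 7 lay below every wild-type array and 1, ZT12 pool 2, above them. The difference was -0.20 ± 0.07 log2 (SE; adjusted p = 0.0717). It was -0.34 within pool 1 and 0.01 within pool 2, and it was called without wild-type ZT4 pool 2 (adjusted p = 0.0497), knockout ZT12 pool 2 (adjusted p = 0.00507) or knockout ZT20 pool 2 (adjusted p = 0.0369). The uncoupling-like carriers Slc25a14, Slc25a27 and Slc25a30 were not called in any test.

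**Figure D2:**
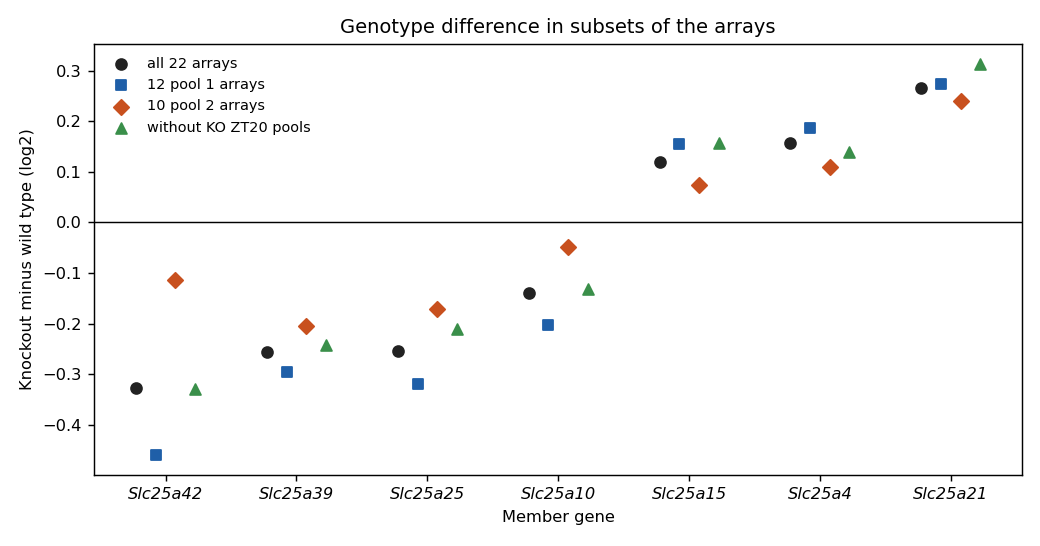
Knockout minus wild-type difference of the mean over the cycle, in log2, of the 7 called carriers, in all 22 arrays, in the 12 pool 1 arrays, in the 10 pool 2 arrays and without both knockout ZT20 pools. Every carrier kept its sign in each subset, and the pool 2 value was closer to 0 than the pool 1 value for all 7, most of all for Slc25a42 (-0.46 and -0.11). The subsets differ in times, as pool 2 has no wild-type array at ZT8 and no knockout array at ZT16.

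The plot of differences in subsets of the arrays shows that the sign of each of the 7 differences held within either pool number. The 7 were called from these same arrays, so a kept sign is no separate support. At all 6 times, 10 carriers had 1 sign of difference (14.5% of all genes), of which Slc25a4, Slc25a21, Slc25a39 and Slc25a42 were called. In no carrier did the arrays of the genotypes lie fully apart, which they did in 0.136% of all genes. None of the 7 called carriers lies on the chromosome of Clock, chromosome 5, where 1 member, Slc25a40, is found.

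The second comparison asked which carriers were rhythmic in wild-type kidneys, by the wave of 24 h of the 11 wild-type arrays, tested in the fit to all 22 arrays. There were 7 of 41 (6.44% of all genes), and 5 of them peaked between ZT11 and ZT16: the carriers of dicarboxylates (Slc25a10), acylcarnitine (Slc25a20), aspartate and glutamate (Slc25a13), pyrimidine nucleotides (Slc25a33) and ATP-Mg (Slc25a25). The pyrimidine nucleotide carrier Slc25a36 peaked at ZT6.93 and the ornithine carrier Slc25a15 at ZT22.7. Amplitudes, counted as the height of the fitted peak over the fitted mean, ran from 0.13 log2 in Slc25a15 to 0.40 log2 in Slc25a25. Over the 41 carriers the median amplitude was 0.10 log2 and over all genes 0.087. At an unadjusted p under 0.05 there were 17 carriers (22.6% of all genes). With a free level at each time in place of the wave, 2 calls remained, Slc25a25 and Slc25a33, and with wild-type arrays alone 4, Slc25a13, Slc25a25, Slc25a33 and Slc25a36.

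Slc25a25 had the largest wild-type amplitude of the family. Its wild-type pools read 9.28 and 9.10 log2 for ZT0, 9.19 and 9.17 for ZT4, 9.22 for ZT8, 9.58 and 9.67 for ZT12, 9.91 and 10.14 for ZT16 and 9.49 and 9.54 for ZT20. Both ZT16 pools were above all others, and the 5 pools from ZT0 to ZT8 were the lowest. The amplitude was 0.40 ± 0.07 log2 (SE; adjusted p = 0.00564) with the peak at ZT15.5, a fold of 1.74 from trough to peak.

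Slc25a33 and Slc25a36, which carry pyrimidine nucleotides for the synthesis of mitochondrial RNA and DNA, had the next amplitudes and peaked at different times. Slc25a33 read 6.33 and 6.11 log2 for ZT0, 6.07 and 6.26 for ZT4, 6.45 for ZT8, 6.87 and 6.80 for ZT12, 6.38 and 6.44 for ZT16 and 6.08 and 6.13 for ZT20. Both ZT12 pools lay above all others. The amplitude was 0.32 ± 0.06 log2 (SE; adjusted p = 0.00464), with the peak at ZT11.4.

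Slc25a36 read 9.72 and 10.01 log2 for ZT0, 10.23 and 10.34 for ZT4, 10.33 for ZT8, 10.04 and 10.05 for ZT12, 9.74 and 9.86 for ZT16 and 9.61 and 9.85 for ZT20. The ZT4 and ZT8 pools were the highest. The amplitude was 0.32 ± 0.07 log2 (SE; adjusted p = 0.0126). This probe set is the brighter of 2, and its identifier sits among those of chromosome 2 genes (19 of 20 neighbours), whereas the gene is on chromosome 9, so it may read a near-identical copy. The dimmer probe set, whose neighbours are on chromosome 9 (19 of 20), gave a smaller amplitude of 0.22 ± 0.06 log2 (SE) with the peak at ZT7.76, and an adjusted p of 0.053 with every probe set tested on its own.

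Slc25a10 read 10.55 and 10.54 log2 for ZT0, 10.81 and 10.62 for ZT4, 10.95 for ZT8, 10.88 and 10.89 for ZT12, 10.86 and 10.78 for ZT16 and 10.67 and 10.72 for ZT20. The ZT8 pool and both ZT12 pools were the highest and both ZT0 pools the lowest. The amplitude was 0.17 ± 0.04 log2 (SE; adjusted p = 0.0128) with the peak at ZT11.3, a fold of 1.27 from trough to peak. The call was kept in all 22 fits that left out 1 array, with an adjusted p of at most 0.0493, but not after quantile normalization was repeated over the kept genes, with an amplitude of 0.14 and an adjusted p of 0.0509.

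Slc25a13, the aspartate/glutamate carrier citrin of the malate-aspartate shuttle, read 10.50 and 10.53 log2 for ZT0, 10.48 and 10.51 for ZT4, 10.66 for ZT8, 10.86 and 10.79 for ZT12, 10.72 and 10.84 for ZT16 and 10.67 and 10.70 for ZT20. The 4 pools of ZT12 and ZT16 lay above the rest, and the 4 of ZT0 and ZT4 below it. The amplitude was 0.17 ± 0.03 log2 (SE; adjusted p = 0.00146) with the peak at ZT14.1, and this was the smallest adjusted p of the family in the test of rhythm. The related Slc25a12, aralar, was not called.

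Slc25a20, which moves acylcarnitines into the matrix for fatty acid oxidation, read 9.94 and 9.65 log2 for ZT0, 9.65 and 9.73 for ZT4, 10.10 for ZT8, 10.24 and 9.95 for ZT12, 10.01 and 10.04 for ZT16 and 9.95 and 9.92 for ZT20. The ZT8 pool and ZT12 pool 1 were the highest, and the pools of ZT0 and of ZT12 lay well apart from each other. The amplitude was 0.19 ± 0.04 log2 (SE; adjusted p = 0.0326), with the peak at ZT13.5. Leaving out wild-type ZT0 pool 2, ZT4 pool 1, ZT4 pool 2 or ZT12 pool 1 ended the call, with an adjusted p of up to 0.0989 and an amplitude of 0.156 to 0.178.

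Slc25a15 read 10.22 and 10.18 log2 for ZT0, 10.04 and 10.09 for ZT4, 9.95 for ZT8, 9.94 and 9.96 for ZT12, 9.94 and 10.11 for ZT16 and 10.11 and 10.18 for ZT20. The ZT0 pools were the highest, and the pools of ZT8 and ZT12 were among the lowest. The amplitude was 0.13 ± 0.03 log2 (SE), and the adjusted p of 0.0484 was close to the threshold. The call was lost in 17 of 22 fits that left out 1 array, with an adjusted p of up to 0.117. It was kept only without wild-type ZT4 pool 1 or ZT16 pool 2, or knockout ZT0 pool 2, ZT16 pool 1 or ZT20 pool 1.

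Nearest among the carriers without a wild-type rhythm call were Slc25a34, with no settled substrate, and the glutamate carrier Slc25a22. Slc25a34 had an amplitude of 0.25 ± 0.07 log2 (SE; adjusted p = 0.0609) with the peak at ZT11.1, and its wild-type arrays read 6.71, 7.08 and 7.5 log2 as the lowest, median and highest. Slc25a22 had 0.17 ± 0.05 log2 (SE; adjusted p = 0.0693) with the peak at ZT2.81, and its wild-type arrays read 6.57, 6.82 and 7.22 log2. Slc25a34 was called without wild-type ZT12 pool 2, knockout ZT4 pool 1 or knockout ZT20 pool 2 (adjusted p = 0.0424, 0.0421 and 0.0445), and without both knockout ZT20 pools (adjusted p = 0.0357). Slc25a22 was called without wild-type ZT0 pool 2 (adjusted p = 0.0357). Among the iron and glutathione carriers and the uncoupling-like carriers no rhythm was called in either genotype.

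**Figure D3:**
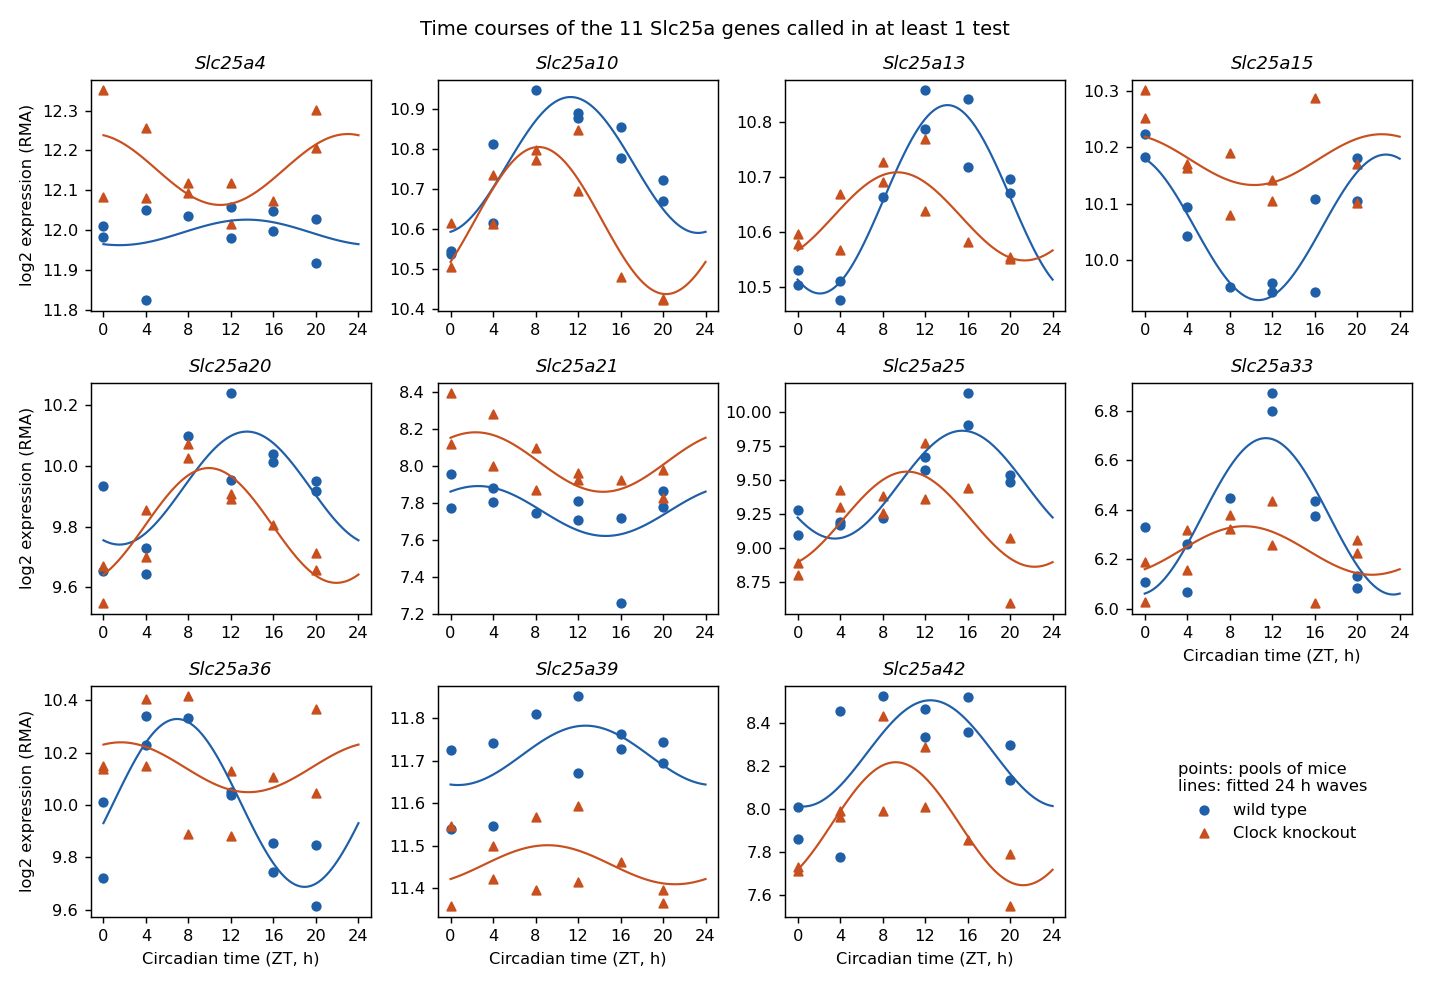
log2 expression against circadian time for the 11 carriers called in at least 1 test, with 1 point per pool of mice and the fitted 24 h wave per genotype (circles, wild type; triangles, Clock knockout). The Slc25a25 pools of wild type are highest at ZT16 (9.91 and 10.14) while the knockout pools are lowest at ZT20 (8.59 and 9.07) and ZT0, and the Slc25a39 waves run apart over the whole cycle.

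In knockout kidneys 2 of 41 carriers were rhythmic (2.46% of all genes), Slc25a10 and Slc25a25, both also rhythmic in wild type (1.12% of all genes were called in both genotypes). Slc25a10 read 10.51 and 10.62 log2 for ZT0, 10.61 and 10.74 for ZT4, 10.77 and 10.80 for ZT8, 10.70 and 10.85 for ZT12, 10.48 for ZT16 and 10.43 and 10.42 for ZT20 in knockout. Both ZT20 pools were the lowest. The amplitude was 0.18 ± 0.03 log2 (SE; adjusted p = 0.0127) with the peak at ZT8.28. Slc25a25 read 8.80 and 8.89 log2 for ZT0, 9.30 and 9.43 for ZT4, 9.26 and 9.38 for ZT8, 9.36 and 9.77 for ZT12, 9.44 for ZT16 and 8.59 and 9.07 for ZT20. The pools of ZT0 and ZT20 were the lowest. Its amplitude was 0.35 ± 0.07 log2 (SE; adjusted p = 0.0253) with the peak at ZT10.3.

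Both calls depended on the knockout ZT20 pools, which stood apart in the mean of the sex-dimorphic transcripts. Without both pools the amplitude was 0.17 for Slc25a10 (adjusted p = 0.313) and 0.30 for Slc25a25 (adjusted p = 0.224). Leaving out ZT20 pool 1 or pool 2 alone ended the call of Slc25a10 (adjusted p = 0.0569 and 0.0681). For Slc25a25 the call ended without knockout ZT0 pool 1, ZT12 pool 2, ZT20 pool 1 or ZT20 pool 2, with an adjusted p of 0.0801, 0.0937, 0.07 and 0.0563. With knockout arrays alone it also ended (adjusted p = 0.0734), while Slc25a20 and Slc25a42 were called (adjusted p = 0.049 and 0.0446). Of the 7 sex-dimorphic transcripts, 4 were rhythmic in knockout (2.46% of all genes) and 0 in wild type (6.44% of all genes). A link between these calls and those of the carriers was not tested.

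The nearest carriers without a knockout call were Slc25a20 and Slc25a42, both in the supply of acyl groups or coenzyme A to the matrix. Slc25a20 read 9.67 and 9.55 log2 for ZT0, 9.70 and 9.86 for ZT4, 10.07 and 10.03 for ZT8, 9.89 and 9.91 for ZT12, 9.81 for ZT16 and 9.71 and 9.66 for ZT20, with both ZT8 pools the highest. Its amplitude was 0.19 ± 0.04 log2 (SE; adjusted p = 0.0517), with the peak at ZT9.92, and it was called without wild-type ZT0 pool 1, ZT4 pool 1, ZT8 pool 1 or either ZT12 pool (adjusted p down to 0.0386). Slc25a42 read 7.71 and 7.73 log2 for ZT0, 7.96 and 7.99 for ZT4, 7.99 and 8.43 for ZT8, 8.01 and 8.29 for ZT12, 7.85 for ZT16 and 7.55 and 7.79 for ZT20, with ZT8 pool 2 the highest and ZT20 pool 1 the lowest. Its amplitude was 0.29 ± 0.07 log2 (SE; adjusted p = 0.0573), with the peak at ZT9.23. Without knockout ZT8 pool 1, the array with the highest brown fat markers, it was 0.33 (adjusted p = 0.0437), and it was also called without wild-type ZT4 pool 1 (adjusted p = 0.0284) or pool 2 (adjusted p = 0.0272). In wild type Slc25a42 had an amplitude of 0.25 ± 0.07 log2 (SE; adjusted p = 0.0729).

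The third comparison asked whether the waves themselves differed between genotypes, by the length of the vector between both fitted waves. No carrier was called (0 of 41, against 0.0429% of all genes, limma), and 5 had an unadjusted p under 0.05 (7.77% of all genes). Slc25a25 had the largest value, 0.47 ± 0.11 log2 (SE; adjusted p = 0.308). It was followed in p by Slc25a13 with 0.16 ± 0.04 log2 (SE; adjusted p = 0.354), whose knockout pools lay between 10.55 and 10.77 log2 against 10.48 to 10.86 in wild type. Slc25a36 had 0.32 ± 0.09 (adjusted p = 0.479), Slc25a33 0.24 ± 0.08 (adjusted p = 0.587) and Slc25a10 0.14 ± 0.05 (SE; adjusted p = 0.64). So the carriers called in wild type and not in knockout are not shown to differ in rhythm between the genotypes.

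**Figure D4:**
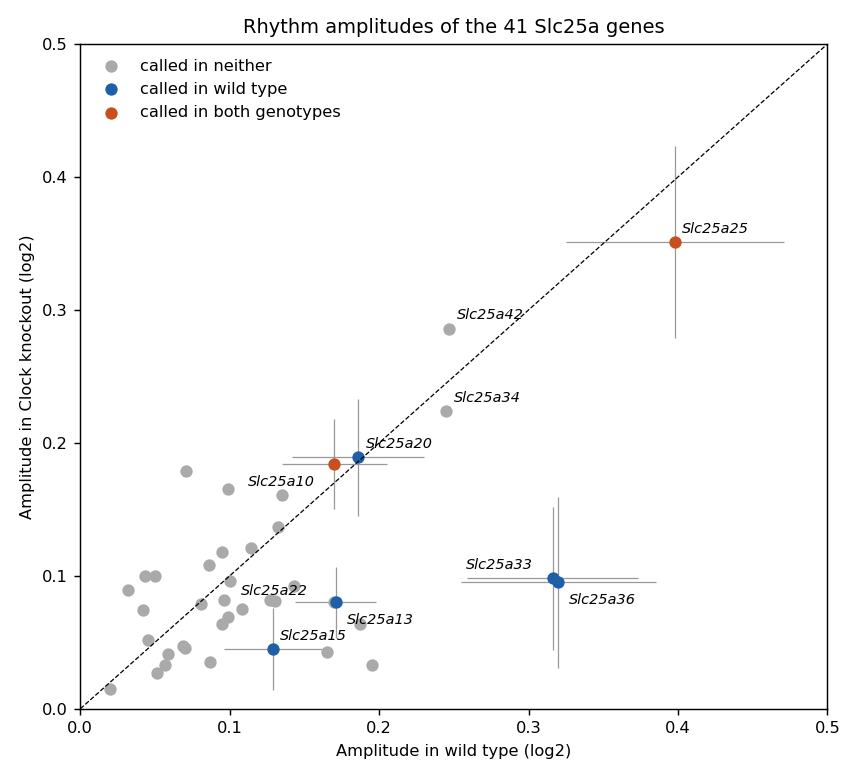
Amplitude of the fitted 24 h wave in knockout against that in wild type, both in log2 from mean to peak, for the 41 carriers, with bars of 1 standard error for the carriers called in wild type and a dashed line where both are equal. Slc25a33 and Slc25a36 lie far below the line (0.32 in wild type against 0.10 in knockout for both), whereas Slc25a10, Slc25a20 and Slc25a25 lie close to it.

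The plot of amplitudes shows 26 of the 41 carriers with the larger value in wild type, and 61.3% of all genes had it so. Slc25a33 had an amplitude of 0.10 ± 0.05 log2 (SE; adjusted p = 0.647) in knockout, with pools between 6.02 and 6.43 log2. Slc25a36 had 0.10 ± 0.06 log2 (SE; adjusted p = 0.753) in knockout, with pools between 9.88 and 10.41. In 8 carriers both waves had an unadjusted p under 0.05, and in each of the 8 the knockout peak came earlier, with a median shift of -3.11 h. For all 952 genes with both waves at that mark, 806 had the earlier peak in knockout, with a median shift of -2.01 h. For Slc25a25 the shift was from ZT15.5 to ZT10.3, for Slc25a13 from ZT14.1 to ZT9.37, for Slc25a20 from ZT13.5 to ZT9.92, for Slc25a42 from ZT12.5 to ZT9.23, and for Slc25a10 from ZT11.3 to ZT8.28. The smallest shift was that of Slc25a16, linked to coenzyme A import, from ZT9.82 to ZT9.41. No test of these shifts was made beyond that of the rhythm difference, in which none of these 8 was called. The knockout waves include the knockout ZT20 pools, without which no carrier was called rhythmic in knockout. How the peaks move without these pools was not tested.

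At single times 1 carrier was called (1.84% of all genes at any of the 6 times), Slc25a25 at ZT20 (1.74% of all genes at that time). At the other times no carrier was called, and the share of all genes called was 0.0286% at ZT0 and at ZT8, 0.00714% at ZT4, 0.121% at ZT12 and 0.0143% at ZT16. For Slc25a25 at ZT20 the wild-type pools read 9.49 and 9.54 log2 and the knockout pools 8.59 and 9.07, a difference of -0.68 ± 0.15 log2 (SE; adjusted p = 0.0335). The call ended without wild-type ZT20 pool 1 (adjusted p = 0.0722), wild-type ZT20 pool 2 (adjusted p = 0.295) or knockout ZT20 pool 1, when the difference was -0.44 (adjusted p = 0.227). Slc25a33 at ZT12 was the next nearest, with wild-type pools at 6.87 and 6.80 log2 and knockout pools at 6.26 and 6.44, a difference of -0.49 ± 0.10 log2 (SE; adjusted p = 0.0772).

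Over all tests 11 carriers were called at least once and 30 were not. Of all genes, 5.22% were higher in knockout, 3.89% lower and 6.44% rhythmic in wild type. The share of all genes called in at least 1 test, or for both genotype and wild-type rhythm, was not counted. Of the 11, 3 were called for genotype and wild-type rhythm (Slc25a10, Slc25a15 and Slc25a25), 4 for genotype alone and 4 for wild-type rhythm alone. By role, acid carriers had 1 higher, 1 lower and 2 rhythmic of 5, amino acid carriers 1 higher and 2 rhythmic of 8, and carriers of cofactors and pyrimidine nucleotides 1 lower and 2 rhythmic of 8. The 6 carriers of ADP, ATP and phosphate had 1 higher, 1 lower and 1 rhythmic, and the 4 of iron and glutathione had 1 lower. Among the 30 uncalled carriers the size of the difference reached 0.198 log2 and the wild-type amplitude ran from 0.02 to 0.245 log2.

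Genes that work with the carriers were counted from lists chosen by role, 72 genes above the floor, of which 8 were higher in knockout (5.22% of all genes), 5 lower (3.89%), 8 rhythmic in wild type (6.44%) and 4 in knockout (2.46%). Slc25a20 was not called for genotype (-0.12 log2; adjusted p = 0.101). Of 7 other genes of the carnitine shuttle and of fatty acid oxidation, 3 were lower in knockout. They were Crat (-0.21 ± 0.04 log2, SE; adjusted p = 0.00116), Cpt2 (-0.18 ± 0.05, SE; adjusted p = 0.0151) and the acyl-CoA dehydrogenase Acadl (-0.12 ± 0.03, SE; adjusted p = 0.0102). Cpt1a, the entry step of the shuttle, was rhythmic in both genotypes, with amplitudes of 0.28 log2 in wild type and 0.24 in knockout. Cpt2 was rhythmic in knockout (0.26 log2; adjusted p = 0.00751) and the carnitine importer Slc22a5 in wild type (0.17 log2; adjusted p = 0.0358). Beside Slc25a15, 3 of 7 genes of ornithine and ammonia metabolism were higher in knockout. They were the arginase Arg2 (1.02 ± 0.11 log2, SE; adjusted p = 4.75e-06), the ornithine aminotransferase Oat (0.23 ± 0.05, SE; adjusted p = 0.00281) and the creatine synthesis enzyme Gatm (0.23 ± 0.04, SE; adjusted p = 0.000623). Gatm was also rhythmic in wild type (amplitude 0.16 log2; adjusted p = 0.039). The urea cycle lyase Asl was rhythmic in both genotypes, with 0.20 log2 in wild type and 0.16 in knockout (adjusted p = 0.00294 and 0.0187). Aldh18a1, which makes the glutamate semialdehyde for proline and ornithine, was rhythmic in knockout (0.19 log2; adjusted p = 0.0453). Slc25a10 was lower in knockout, while 3 of 7 genes of sulphide and thiosulphate metabolism were higher, namely Sqor (0.15), Suox (0.18) and Cth (0.10 log2). Ethe1 was rhythmic in wild type with an amplitude of 0.50 log2 and a peak at ZT0.619.

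Of 10 genes of the malate-aspartate and citrate shuttles 1 was called, the malic enzyme Me1, which fell by 0.16 ± 0.04 log2 in knockout (SE; adjusted p = 0.0239). Among 14 other carriers and channels of mitochondria, the pyruvate carrier subunit Mpc1 fell by 0.21 ± 0.04 log2 (SE; adjusted p = 0.00291) and the sideroflexin Sfxn2 rose by 0.23 ± 0.04 log2 (SE; adjusted p = 0.000573). The 10 genes that import carriers into the membrane had no call in any wave test. Of the family members under other symbols, Mtch1 and Mtch2 were not called, Ucp3 was below the floor, and Ucp1 had an uncalled difference of 0.49 log2 (adjusted p = 0.293), with its highest value, 8.34 log2, in knockout ZT8 pool 1. Of 9 genes of mitochondrial biogenesis, Tfam was rhythmic in wild type with an amplitude of 0.25 log2. The gluconeogenic gene Pck1 was rhythmic in wild type with an amplitude of 0.34 log2 and a peak at ZT15.1, and G6pc was rhythmic there and 0.18 log2 higher in knockout.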

How the data were processed

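RNA of whole kidneys was measured on 22 Affymetrix arrays. The authors deposited log2 expression per probe set by RMA, per the submitters' processing notes. This method includes quantile normalization, which removes a shift shared by most genes. In RMA values differences of dim probe sets are compressed. The version of the software used and the genome build were not given in the sources used here. The medians of the arrays ran from 5.88 to 6.01 log2 and correlations between arrays from 0.98 to 0.994. The number of arrays limits the precision.

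Of 35556 probe sets, 21789 have 1 gene symbol, 1621 several (none with a carrier of the family) and 12146 none in the platform annotation. All 46 family symbols matched RefSeq, with 0 changes. Genes with a mean under 5.2 log2 were left out, which left 14002.

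With limma 3.58.1 in R 4.3.3, a mean, cosine and sine of 24 h per genotype were fitted to all 22 arrays (16 residual degrees of freedom). This gave the genotype difference of means, the test of rhythm in each genotype and the test of the difference in rhythm. The residual spread of this fit joins that between pools of a group with departures of the times from the wave. Single times came from a fit of 12 group means (10 residual degrees of freedom), where a group with a single pool takes its spread from the other groups. A call is a Benjamini-Hochberg adjusted p under 0.05 over all 14002 genes. Errors are standard errors of the fit, and ranges are over arrays. The scripts were tested on simulated data.

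Every carrier with a call in any test is described in full, as are the 2 uncalled carriers with the smallest p in each wave test, and the called genes of the partner lists are named. The members, lists and rules were chosen with earlier results of these data known. Alternatives included other floors, probe sets tested one by one, other scalings, array weights, the pool number as a block, a free level at each time, each genotype alone, and subsets of the arrays. Pool 2 alone and the removal of all ZT20 pools were added after seeing the data. Promoter windows came from RefSeq, GRCm38.p6.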

Additional observations from a re-analysis of the deposited data

How the results depend on the processing

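Counts of called carriers are given as genotype difference, wild-type rhythm, knockout rhythm, rhythm difference and single time, which were 7, 7, 2, 0 and 1. Leaving out 1 array at a time gave 5 to 10, 5 to 7, 0 to 4, 0 to 0 and 0 to 1. The knockout rhythm count was 4 without wild-type ZT4 pool 1, 1 without knockout ZT0 pool 1 or ZT12 pool 2, and 0 without either knockout ZT20 pool. Without both knockout ZT20 pools there were 4 genotype differences (Slc25a15, Slc25a21, Slc25a39 and Slc25a42), 0 knockout rhythms and 0 single times. Without the ZT20 pools of both genotypes there were 3 genotype differences (Slc25a15, Slc25a21 and Slc25a39), 4 wild-type rhythms (Slc25a10, Slc25a13, Slc25a25 and Slc25a33) and 0 knockout rhythms. Pool 1 alone gave 4, 1 and 0 for the first 3 counts, and pool 2 alone gave 0, 0 and 0, with 12 and 10 arrays. Pool 2 has no wild-type array at ZT8 and no knockout array at ZT16. In pool 2 alone Slc25a48 turned from -0.198 to 0.011 log2, and this was the only named difference to change sign. Array weights gave 11 genotype differences and 5 knockout rhythms. A floor of 6 log2, subtraction of array medians, and a trended and robust spread each gave 4 knockout rhythms. Without a floor the single-time count was 0. A free level at each time gave 2 wild-type rhythms (Slc25a25 and Slc25a33) and 0 knockout rhythms. Wild-type arrays alone gave 4 wild-type rhythms, and knockout arrays alone 3 knockout rhythms (Slc25a10, Slc25a20 and Slc25a42). Apart from fewer arrays or another number of genes tested, the cause was not tested.

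The pool numbers were not taken to pair the arrays, since the labels do not say what a pool number shares. The deviations of same-numbered pools correlated at 0.361, 0.395, 0.002 and 0.182 at the times with 2 pools in both genotypes. Over all 45 pairs of groups with 2 pools the median was 0.119, and 25 were over 0.1. With the pool number as a block the counts were 9, 8, 3, 0 and 1. The calls gained were the genotype differences of Slc25a23 and Slc25a48 (adjusted p = 0.0403 and 0.0399), the wild-type rhythm of Slc25a32 and the knockout rhythm of Slc25a20 (adjusted p = 0.0411), and none was lost. The median difference of all genes was 0.004 log2 as deposited, 0 with array medians subtracted and -0.001 with quantile normalization repeated.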

Other observations

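Marker lists of kidney cell types and of neighbouring tissue gave these counts of genotype calls over the genes above the floor. Of all genes, 5.22% were higher in knockout and 3.89% lower. The thick ascending limb had 2 higher and 1 lower in knockout of 6, principal cells 2 higher of 5, intercalated cells 2 higher of 5 and the proximal tubule 2 higher and 1 lower of 12. Immune cells had 1 lower of 6 and erythroid cells 1 higher of 2. The erythroid call was Slc4a1, which is also counted among the intercalated cells, and Alas2 was not called (-0.07 log2; adjusted p = 0.727). Podocytes, stroma, proliferation, skeletal muscle and brown fat had none, and all 4 adrenal markers were below the floor. Sex-dimorphic kidney transcripts had 2 higher and 5 lower of 7. Proliferation markers were highest in knockout ZT20 pool 2, at a mean of 7.03 log2 against at most 6.43 in the other knockout arrays.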
